A study of Mus musculus with 8 samples.

Results

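The cell cycle and DNA replication genes described here are 35 genes taken by symbol from a list, and all 35 were found among the 23997 genes of the expression table. They comprise 12 S phase members, whose products make or feed replicating DNA or, for Ccne2, open S phase, and 23 mitotic members. Mki67, Top2a and Ccna2 are counted as mitotic although their products are present from S phase on, and so is Stmn1, a microtubule destabiliser. Expression was measured by RNA sequencing in regulatory T (Treg) cells, which restrain immune responses and depend on the transcription factor Foxp3. They were sorted as CD4+YFP+ from spleen and draining lymph nodes of C57BL/6 mice. The Bcl11b-deficient group (4 samples) had the genotype Bcl11b f/f Foxp3-YFP-Cre/+, and the Bcl11b-sufficient group (4 samples) had Bcl11b f/+ Foxp3-YFP-Cre/+. Both groups thus carried 1 Foxp3-YFP-Cre allele and at least 1 floxed copy of Bcl11b, which encodes a T cell transcription factor, and Cre expression followed Foxp3. Foxp3 lies on the X chromosome, so Treg cells that use the other Foxp3 allele carry no YFP, stay outside the sort and keep Bcl11b in the same animal. The sources used here do not give ages, the number of animals or any pooling.

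A cell that divides first copies its DNA in S phase and then separates the copies in mitosis. Transcription factors of the E2F family raise the S phase genes, among them the Mcm subunits of the replicative helicase and the enzymes that supply deoxynucleotides. The mitotic genes follow later under B-Myb and FoxM1, and in resting cells the DREAM complex holds them down through a promoter element called the CHR (cell cycle genes homology region), often near CCAAT boxes. Treg cells of lymphoid organs include a resting and an activated, cycling fraction, and Ki-67, the product of Mki67, is widely used to mark the latter.

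Letters of these elements were sought in the promoters of the members. The mitotic members went up and down together across libraries, and a link of this to their promoters was not tested. RefSeq promoters (GRCm38.p6) matched 28 of the 35 members, 10 S phase and 18 mitotic, and the 250 bases before each start were searched on both strands. CHR was searched as TTTGAA and as TTCGAA, and the CCAAT box as those letters. E2F was searched as TTCCCGC and as TTGGCGC, and further as TTCGCGC and also as TTGCCGC. Overlapping matches of 1 kind were counted once, and overlaps between kinds were kept. Of each set the 2 promoters with the most matches are printed, in lower case with every match in capitals. They are Top2a at chr11:99024190-99024439 (minus strand), Cdk1 at chr10:69352913-69353162 (minus strand), Mcm5 at chr8:75109259-75109508 (plus strand) and Mcm6 at chr1:128359706-128359955 (minus strand), each written 5′ to 3′ along its gene. Mcm7 also had 4 matches and came after Mcm5 and Mcm6 in the alphabet.
Top2a: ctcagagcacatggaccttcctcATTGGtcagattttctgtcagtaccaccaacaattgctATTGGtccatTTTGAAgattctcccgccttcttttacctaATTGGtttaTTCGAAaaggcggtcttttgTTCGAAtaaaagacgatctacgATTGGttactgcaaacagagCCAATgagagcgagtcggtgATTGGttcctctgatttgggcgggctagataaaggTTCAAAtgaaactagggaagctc
Cdk1: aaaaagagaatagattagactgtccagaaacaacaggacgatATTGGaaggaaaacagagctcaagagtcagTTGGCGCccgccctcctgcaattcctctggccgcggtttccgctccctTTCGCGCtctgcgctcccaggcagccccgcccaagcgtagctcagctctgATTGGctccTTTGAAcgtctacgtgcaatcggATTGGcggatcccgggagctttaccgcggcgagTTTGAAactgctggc
Mcm5: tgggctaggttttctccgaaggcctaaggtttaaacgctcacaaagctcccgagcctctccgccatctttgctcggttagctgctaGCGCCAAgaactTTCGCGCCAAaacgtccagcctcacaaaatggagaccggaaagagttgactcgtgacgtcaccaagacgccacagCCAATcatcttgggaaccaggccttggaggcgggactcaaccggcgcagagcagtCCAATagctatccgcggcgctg
Mcm6: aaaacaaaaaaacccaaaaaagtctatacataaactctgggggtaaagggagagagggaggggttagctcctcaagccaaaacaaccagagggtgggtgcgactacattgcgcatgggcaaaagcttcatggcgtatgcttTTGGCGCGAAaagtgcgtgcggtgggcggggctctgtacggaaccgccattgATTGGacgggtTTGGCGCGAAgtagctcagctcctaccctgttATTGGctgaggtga

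Top2a, the topoisomerase that untangles replicated chromosomes, had 4 CHR and 6 CCAAT matches and 0 of E2F. Cdk1, the kinase that drives entry into mitosis, had 2 CHR matches, 65 and 9 bases before the start, 3 CCAAT matches and 2 of E2F. Mcm5 and Mcm6, subunits of the helicase, each had 2 E2F and 2 CCAAT matches and 0 of CHR. Over the sets, CHR letters were in 8 of 18 mitotic promoters (44.4%) and 2 of 10 S phase promoters (20%), against 12.2% of the 8080 promoters of tested genes. E2F letters were in 5 of 10 S phase promoters (50%) and 3 of 18 mitotic promoters (16.7%), against 15% of tested genes. CCAAT letters were common to both sets, in 8 of 10 S phase and 16 of 18 mitotic promoters, against 37.1% of tested genes. For members the promoter with its start nearest the GENCODE start was used, and for all other genes the first promoter listed. The shares of members and of tested genes thus come from promoters chosen by different rules. A match is a run of letters and was not tested as a binding site.

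Values are FPKM, fragments scaled to transcript length and library size, and series of 4 values follow replicates 1 to 4. The 8 samples were treated as 5 libraries, an inference from the values, since the labels list 4 separate replicates in each group. Replicates 1 and 3 of each group, and replicates 2 and 4 of the deficient group, differed by 1.14 to 1.21 times the sampling noise of their reads, against 1.72 to 2.53 times for the 9 other pairs within a group. Each such pair was averaged and counted as 1 library, which left 2 deficient and 3 sufficient libraries. The labels do not tie libraries to separate animals. The spread behind each p-value is thus that between these libraries and may be technical. Estimated depth was 2630000 to 11630000 fragments per replicate. The highest estimate, for sufficient replicate 4, is the least certain. Only 9.83% of its ratios of low values fell on the steps that whole fragments give, the lowest share of all replicates. The noise ratios of its pairs use this estimate and are uncertain too. Bcl11b checked the labels, at 24.2, 19.3, 24.6 and 18.7 FPKM across the deficient samples, and 42.4, 46.5, 42.4 and 39.1 FPKM across the sufficient ones (log2 fold change -0.95 ± 0.14 SE, limma adjusted p = 0.0238, within 0.000378 to 0.133 over the alternatives). Sufficient replicate 4 stood apart, with the small RNA gene Snora61 at 31180 FPKM against 0 FPKM in the other 7 replicates. Of the cell's defining genes, Foxp3 lay at 148 to 157 FPKM in deficient and 165 to 205 FPKM in sufficient replicates. Cd3e, a T cell receptor subunit, lay at 245 to 257 FPKM in deficient and 259 to 298 FPKM in sufficient replicates. Both were thus lower in deficient cells without overlap, and neither was called (limma adjusted p = 0.285 and 0.584). Groups did not overlap for 36.7% of all tested genes. The list of 9 T and Treg cell genes, 1 of them called lower, summed to 1949 to 2111 FPKM in deficient and 2393 to 2610 FPKM in sufficient replicates.

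None of the 35 members passed the test between deficient and sufficient Treg cells, and the levels of the groups overlapped for each of them. Cycling genes were transcribed in both groups, from a mean of 1.57 FPKM for Cenpf to 172 FPKM for Pcna in sufficient libraries. Levels differed between libraries within each group. With 2 deficient and 3 sufficient libraries, small differences between the groups were not detectable. The 23 mitotic members together reached 225, 333, 240.4 and 349 FPKM across the deficient samples, and 279, 271, 295 and 157 FPKM across the sufficient ones. Deficient replicates 2 and 4 were thus at the top, sufficient replicate 4 at the bottom and all other replicates in between. In bulk RNA, fewer cycling cells and less RNA per cycling cell cannot be told apart.

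By limma with Benjamini-Hochberg adjustment over 10614 genes, 0 of 12 S phase and 0 of 23 mitotic members were called, where 2.63% of all tested genes were. At an unadjusted p under 0.05 the count was also 0 of 35, against 17.8% of all tested genes. All 35 passed the filter of a mean of at least 1 FPKM. Adjusted p ranged from 0.341 for Aurka to 0.976 for Kif20a. The groups did not overlap over the 5 libraries for 36.7% of all tested genes (18.9% higher and 17.9% lower in deficient cells), but for 0 of the 35 members. For 29 of the 35 the difference between groups was smaller than 1 pooled within-group SD on the log2 scale, against 47% of all tested genes.

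**Figure D1:**
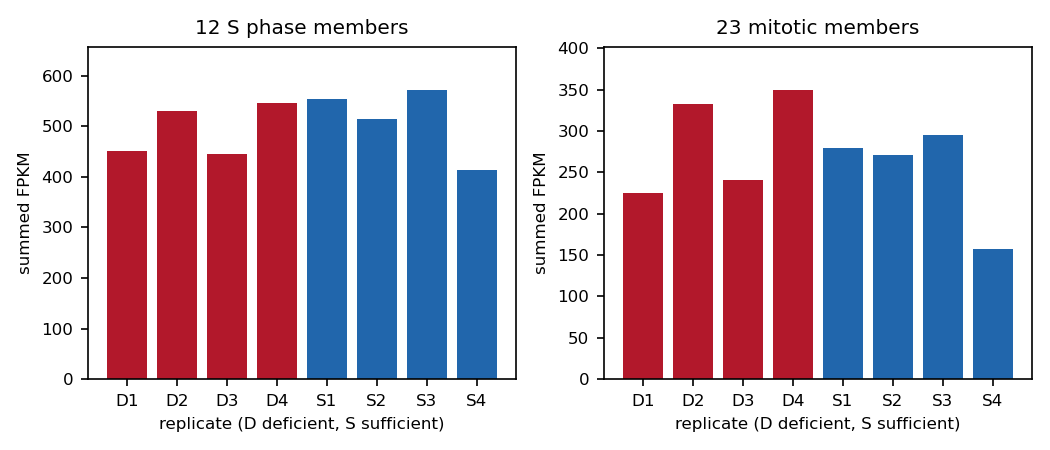
Summed FPKM of the 12 S phase members (left) and the 23 mitotic members (right) in each replicate, with deficient replicates in red (D1 to D4) and sufficient replicates in blue (S1 to S4). Replicates 1 and 3 of each group and deficient replicates 2 and 4 are near-identical pairs, and the mitotic sum runs from 157 FPKM in S4 to 349 FPKM in D4.

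The S phase members varied less between libraries than the mitotic ones. They summed to 451, 530.2, 444 and 547 FPKM across the deficient samples, and to 555, 515, 571 and 414 FPKM across the sufficient ones. Over libraries this was 493 ± 64.3 FPKM (SD, n = 2) in deficient and 497 ± 76.1 FPKM (SD, n = 3) in sufficient cells. For the mitotic members it was 287 ± 76.8 FPKM (SD, n = 2) against 238 ± 70.9 FPKM (SD, n = 3). The ratio of the highest to the lowest of the 5 libraries had a median of 1.46 over S phase members and 2.35 over mitotic members, against 1.40 over all genes tested. The mitotic sum was 0.519 and 0.633 of the S phase sum in the deficient libraries and 0.510, 0.527 and 0.380 of it in the sufficient libraries. The last of these values is sufficient replicate 4, so the groups overlapped in this ratio too.

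Among S phase members, the 6 Mcm genes encode the ring-shaped helicase that opens DNA at the fork. Their levels were similar to each other per length, with group means from 33.5 FPKM for Mcm2 to 61.2 FPKM for Mcm6, and their log2 fold changes lay between -0.09 and 0.08. Mcm6 measured 48.5, 65.5, 52.0 and 65.2 FPKM across the deficient samples, and 67.3, 61.6, 71.2 and 52.8 FPKM across the sufficient ones. Its lowest library was deficient replicates 1 and 3, while the other 5 Mcm genes were lowest in sufficient replicate 4. The log2 fold change of Mcm6, the member of this group with the lowest p, was -0.09 (SE 0.16, 95% interval -0.46 to 0.29, limma adjusted p = 0.819). It was -0.19 without sufficient replicate 4, -0.27 without deficient replicates 2 and 4 and 0.10 when replicates 1 and 3 of that group were left out. For all 6 Mcm genes the interval ended at or below 0.51, the value for Mcm3.

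Pcna encodes the sliding clamp that holds DNA polymerases on their template, and it had the highest level of all members. It measured 151, 162, 149 and 171 FPKM across the deficient samples, and 182, 175, 205 and 147 FPKM across the sufficient ones. Sufficient replicate 4 lay at the bottom of all replicates, and sufficient replicates 1 to 3 above the deficient ones. The log2 fold change was -0.11 (SE 0.14, 95% interval -0.45 to 0.22, limma adjusted p = 0.717). It turned to 0.10 with libraries scaled to equal totals, which raised fold changes in general, and to 0.02 with quantile normalization. Over left-out libraries it lay between -0.22 for sufficient replicate 4 and -0.02 for sufficient replicates 1 and 3.

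Rrm1 and Rrm2 are the subunits of ribonucleotide reductase, which makes deoxynucleotides, and Tyms and Tk1 supply thymidine nucleotides. Rrm2, the subunit whose level is tied to S phase, measured 23.1, 33.8, 21.1 and 34.2 FPKM across the deficient samples, and 29.0, 21.7, 28.8 and 15.5 FPKM across the sufficient ones. It varied 2.2-fold between libraries, more than Rrm1 (1.49-fold), Tyms (1.63-fold) and Tk1 (1.33-fold). Its log2 fold change was 0.35 (SE 0.27, 95% interval -0.29 to 0.99, limma adjusted p = 0.550). It was 0.13 without sufficient replicate 4 and 0.049 with deficient replicates 2 and 4 left out. Without deficient replicates 1 and 3 it rose to 0.65, and without sufficient replicates 1 and 3 to 0.56.

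Ccne2, a cyclin that partners Cdk2 at the start of S phase, was the S phase member with the lowest level. It measured 2.77, 1.96, 1.89 and 3.32 FPKM across the deficient samples, and 1.54, 2.42, 1.69 and 1.10 FPKM across the sufficient ones. The 2 averaged deficient pairs differed within themselves by at least as much as the group means did, and the sufficient pair by less. The log2 fold change was 0.39 (SE 0.24, 95% interval -0.17 to 0.95, limma adjusted p = 0.446). It was 0.22 without sufficient replicate 4 and 0.24 without deficient replicate 4. Without sufficient replicate 2 it was 0.57, and without deficient replicate 2 it was 0.51.

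**Figure D2:**
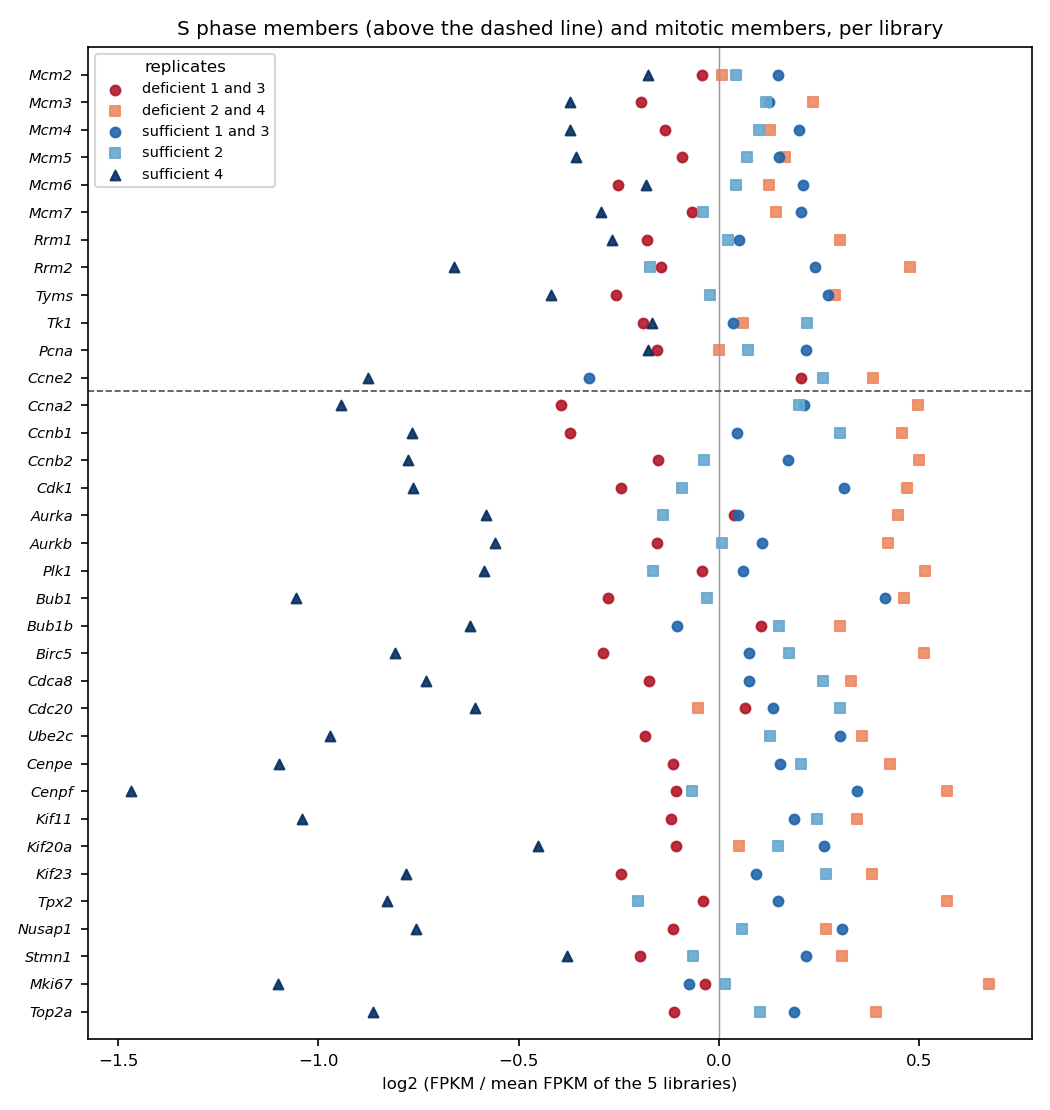
Level of each member in the 5 libraries, as log2 of FPKM over the mean of the 5, with deficient libraries in red and orange and sufficient libraries in blues. Sufficient replicate 4 (dark triangles) lies at the low end of all 23 mitotic members, and deficient replicates 2 and 4 (orange squares) at the high end of 20 of them.

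The mitotic members moved together across libraries. Of the 23, 20 were highest in deficient replicates 2 and 4 and 23 lowest in sufficient replicate 4, against 19.1% and 19.6% of all tested genes. Of the 12 S phase members, 6 were highest and 10 lowest in the same libraries. Within the deficient group, replicates 2 and 4 were above replicates 1 and 3 by a median of 1.47-fold over mitotic members and 1.20-fold over S phase members, where the median over all tested genes was 1.005-fold. Within the sufficient group, replicate 4 was at a median of 0.523 times the mean of the other libraries over mitotic members and 0.746 times over S phase members, where the median over all tested genes was 1.03 times. These libraries were compared within their groups, so the ratios have no replicates and no test.

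Mki67 encodes Ki-67, which coats mitotic chromosomes. It lies on chromosome 7 from 135689784 to 135716361 on the minus strand (GENCODE M21, GRCm38). It measured 18.4, 31.3, 20.4 and 32.2 FPKM across the deficient samples, and 17.9, 20.1, 19.8 and 9.28 FPKM across the sufficient ones. Deficient replicates 2 and 4 stood above all others, and deficient replicate 1 lay within the sufficient range. Its mean was 25.6 ± 8.72 FPKM (SD, n = 2) in deficient and 16.1 ± 5.93 FPKM (SD, n = 3) in sufficient libraries, and its log2 fold change, 0.67, was the highest of the 35 (SE 0.34, 95% interval -0.13 to 1.46, limma adjusted p = 0.357). Over all alternatives run, the adjusted p of Mki67 ranged from 0.139 to 0.777. Its log2 fold change was 0.34 without sufficient replicate 4 and 0.33 without deficient replicates 2 and 4. It was 1.01 when deficient replicates 1 and 3 were left out.

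As a share of the mitotic sum, Mki67 made up 8.21%, 9.42%, 8.48% and 9.21% in deficient replicates 1 to 4. In sufficient replicates 1 to 4 the shares were 6.42%, 7.42%, 6.72% and 5.91%. The groups did not overlap in this share, which was picked after its values were seen and was not tested. Top2a, beside it in the set of chromosome genes, measured 22.8, 30.1, 21.1 and 32.3 FPKM across the deficient samples, and 25.1, 25.5, 29.0 and 13.1 FPKM across the sufficient ones. Its groups overlapped in level.

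Cyclins A and B with Cdk1 form the kinase that takes a cell through mitosis. Ccnb2, a B-type cyclin, measured 11.7, 17.4, 11.5 and 19.1 FPKM across the deficient samples, and 14.3, 12.6, 14.9 and 7.54 FPKM across the sufficient ones. The sufficient libraries other than replicate 4 lay between the deficient libraries. The log2 fold change of Ccnb2 was 0.36 (SE 0.28, 95% interval -0.31 to 1.02, limma adjusted p = 0.562). Leaving out sufficient replicate 4 gave 0.10, and leaving out deficient replicates 2 and 4 gave 0.052. Leaving out deficient replicates 1 and 3 gave 0.66, and leaving out sufficient replicates 1 and 3 gave 0.53. Ccna2, Ccnb1 and Cdk1 followed the same order at their extremes, with deficient replicates 2 and 4 at 1.86, 1.77 and 1.64 times deficient replicates 1 and 3. In sufficient replicate 4 they were at 0.451, 0.519 and 0.541 times the other sufficient libraries.

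Aurka, Aurkb and Plk1 are kinases that build the spindle and correct its attachments, and Bub1 and Bub1b act in the checkpoint that waits for all chromosomes to attach. Aurka measured 6.71, 9.81, 7.25 and 8.71 FPKM across the deficient samples, and 6.78, 6.17, 7.28 and 4.54 FPKM across the sufficient ones. Its deficient replicates 1 and 3 were at the level of sufficient replicates 1 and 3. The log2 fold change of Aurka was 0.41 (SE 0.20, 95% interval -0.06 to 0.87), and its limma adjusted p of 0.341 was the lowest of the members. The change was 0.25 without sufficient replicate 4 and 0.22 if deficient replicates 2 and 4 were left out. Plk1 and Bub1b had log2 fold changes of 0.41 and 0.34, and the median of the 5 genes was 0.34.

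Birc5 and Cdca8 belong to the chromosomal passenger complex, while Cdc20 and Ube2c work with the anaphase-promoting complex, which marks cyclin B for destruction. Birc5 measured 17.97, 38.4, 19.9 and 27.7 FPKM across the deficient samples, and 22.5, 26.1, 26.3 and 13.2 FPKM across the sufficient ones. Its value in deficient replicate 2 exceeded that of the near-identical replicate 4. The log2 fold change of Birc5 was 0.28 (SE 0.32, 95% interval -0.48 to 1.05, limma adjusted p = 0.694). It was -0.01 without sufficient replicate 4 and -0.10 without deficient replicates 2 and 4. Cdc20 was the only member in which deficient replicates 2 and 4 were below 1 and 3, at 0.921 times.

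The remaining mitotic members act at kinetochores and on microtubules. Cenpe and Cenpf sit at kinetochores, Kif11, Kif20a and Kif23 are motor proteins, and Tpx2 and Nusap1 organise spindle microtubules. Tpx2 measured 5.82, 8.97, 5.63 and 8.50 FPKM across the deficient samples, and 6.51, 5.12, 6.53 and 3.31 FPKM across the sufficient ones. Only deficient replicates 2 and 4 exceeded the sufficient values. Its log2 fold change was 0.47 (SE 0.26, 95% interval -0.15 to 1.10, limma adjusted p = 0.404). With sufficient replicate 4 left out it was 0.25, and with deficient replicates 2 and 4 left out 0.21. With deficient replicates 1 and 3 left out it was 0.74, and with sufficient replicates 1 and 3 left out 0.66. Cenpf spanned the widest range of all members, 4.11-fold between libraries, and measured 0.658 FPKM in sufficient replicate 4 against 1.74 to 2.36 FPKM in the other sufficient replicates. Stmn1 varied 1.61-fold and Kif20a 1.64-fold, the narrowest among mitotic members.

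**Figure D3:**
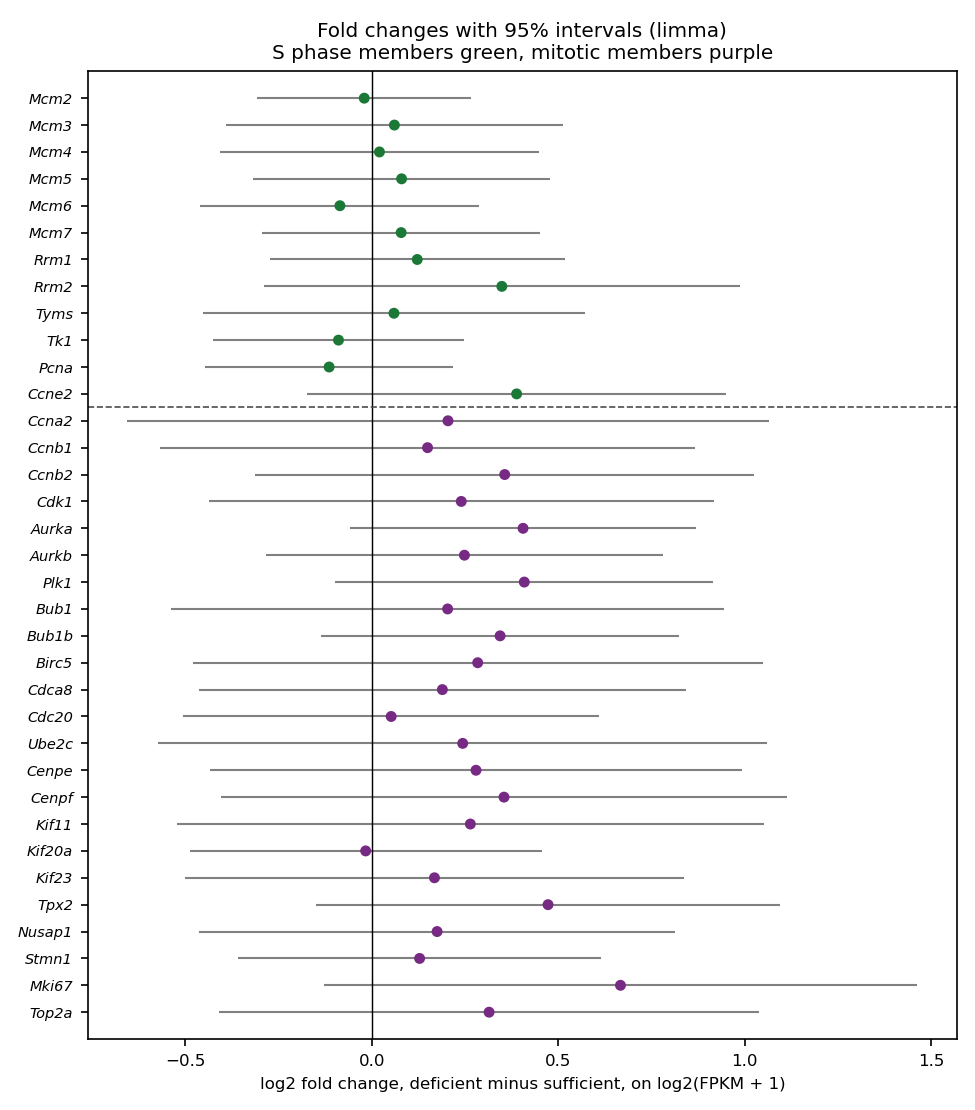
Log2 fold changes of the 35 members, deficient minus sufficient, with 95% intervals from limma on log2(FPKM + 1), S phase members in green and mitotic members in purple. All 35 intervals include 0, and the estimates run from -0.11 (Pcna) to 0.67 (Mki67).

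Taken by sign alone, 22 of 23 mitotic and 8 of 12 S phase members had a log2 fold change above 0, against 47.9% of all tested genes. The medians were 0.25 for mitotic members, 0.06 for S phase members and -0.01 for all tested genes. These signs are not independent of each other, since the members share the same libraries. Leaving out sufficient replicate 4, the lowest library of the mitotic sum, or deficient replicates 2 and 4, the highest, had to lower the difference. Without sufficient replicate 4 the medians were -0.01 (mitotic) and -0.09 (S phase), with 39.1% and 25% of members above 0. Without deficient replicates 2 and 4, which leaves 1 deficient library, they were 0.01 and -0.11. The medians rose to 0.50 and 0.19 without deficient replicates 1 and 3, which also leaves 1 deficient library. They rose to 0.42 and 0.16 without sufficient replicates 1 and 3, and to 0.38 and 0.08 without sufficient replicate 2. With libraries scaled to equal totals they were 0.43 and 0.25, where the median of all tested genes was itself 0.18.

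Genes of other cell types were compared between the same libraries, and their part in the levels of the members was not tested. Over all tested genes 1.93% were called higher and 0.697% lower in deficient cells. Of the 14 macrophage markers 13 were tested and 7 called higher. These 14 summed to 322 to 705 FPKM in deficient and 17.7 to 81.7 FPKM in sufficient replicates. Within the deficient group they were at 691 FPKM in the library of replicates 1 and 3 and at 326 FPKM in that of replicates 2 and 4, the opposite order to the mitotic members. Of the 8 NK markers 7 were tested and 4 called higher. Together the 8 summed to 329 to 380.1 FPKM in deficient and 6.34 to 25.4 FPKM in sufficient replicates. Of the 8 erythroid markers 4 were tested and 0 called. All 8 summed to 39.8 and 227 FPKM in the deficient libraries. In the sufficient libraries of replicates 1 and 3, 2 and 4 they summed to 24.7, 142 and 44.3 FPKM. The erythroid and the mitotic sum were both highest in deficient replicates 2 and 4. Sufficient replicates 1 and 3 had the lowest erythroid sum and the second highest mitotic sum.

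The 4 germinal centre B cell markers summed to 2.82 to 5.07 FPKM in all replicates, and the 8 genes of the B cell list, 1 of 3 tested called higher, to 16.3 to 21.4 FPKM in deficient and 14.2 to 23.8 FPKM in sufficient replicates. Of the 6 plasma cell markers 4 were tested and 1 called higher. Together the 6 summed to 47.8 to 76.4 FPKM in deficient and 49.0 to 57.5 FPKM in sufficient replicates. The neutrophil list summed to 4.98 to 35.8 FPKM in deficient and 3.24 to 35.7 FPKM in sufficient replicates. The 8 dendritic genes, 2 of 4 tested called higher, summed to 129 to 138 FPKM (deficient) and 113 to 132 FPKM (sufficient). Effector Treg genes, of which 1 of 9 was called lower, summed to 192 to 228 FPKM in deficient and 261 to 371 FPKM in sufficient replicates. Resting Treg genes, of which 1 of 7 was called lower, overlapped at 1207 to 1285 and 1231 to 1327 FPKM.

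The wider cell cycle machinery was read from 136 other genes in 5 lists, of which 132 passed the filter. Medians and signs of these lists are over all listed genes, and calls over those tested. The test called 1 higher, Cdc25b, and 1 lower, Cdkn1a, where 1.93% of all tested genes were called higher and 0.697% lower. Cdkn1a encodes p21, an inhibitor of cyclin-dependent kinases. It measured 1.67, 2.11, 1.69 and 1.38 FPKM across the deficient samples, and 4.55, 7.08, 4.01 and 5.02 FPKM across the sufficient ones, with no overlap. It fell from 5.46 ± 1.45 (SD, n = 3) to 1.71 ± 0.0479 FPKM (SD, n = 2), a log2 fold change of -1.23 (SE 0.21, 95% interval -1.72 to -0.74, limma adjusted p = 0.0341). The adjusted p of Cdkn1a was 0.0593 when sufficient replicate 2 was left out, 0.0772 for replicate 4 and 0.175 without the library of deficient replicates 2 and 4. It was 0.205 without that of replicates 1 and 3, within a range of 0.00138 to 0.205 over all alternatives. With no filter and with equal totals the call also ended, at 0.107 and 0.0619, and with a filter at 5 FPKM Cdkn1a was not tested.

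Cdc25b encodes a phosphatase that activates Cdk1 complexes. It measured 57.5, 59.8, 53.4 and 66.0 FPKM across the deficient samples, and 37.7, 41.5, 38.4 and 33.6 FPKM across the sufficient ones, again with no overlap. It rose from 37.7 ± 3.94 (SD, n = 3) to 59.2 ± 5.26 FPKM (SD, n = 2), a log2 fold change of 0.64 (SE 0.12, 95% interval 0.35 to 0.93, limma adjusted p = 0.0486). The call lay at the threshold. It ended in 14 of the 20 alternatives, among them each of the 5 libraries left out, with adjusted p from 0.00127 to 0.270 over all of them and a log2 fold change of 0.55 to 0.73 over left-out libraries. Within the deficient group, replicates 2 and 4 had Cdc25b at 1.13 times replicates 1 and 3.

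**Figure D4:**
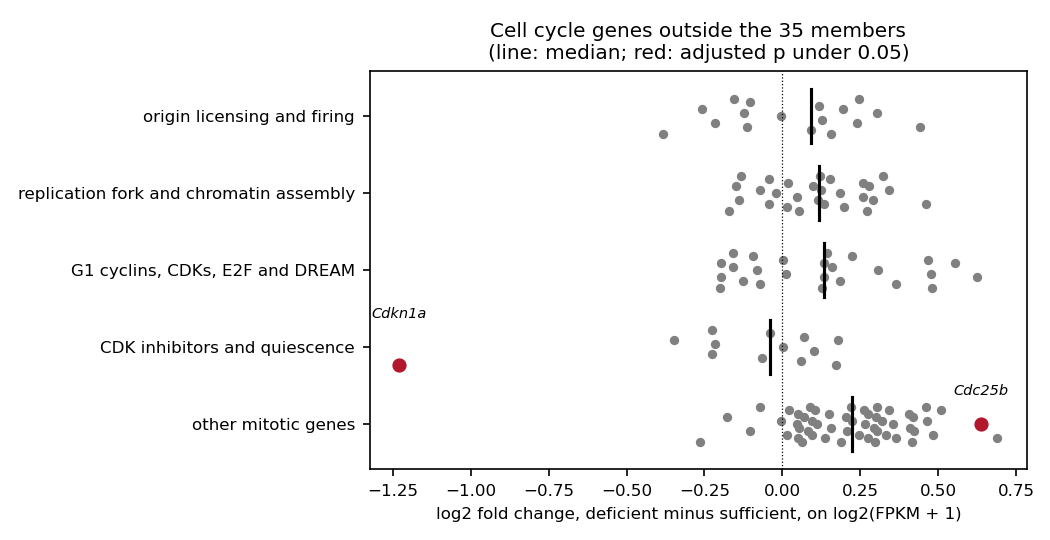
Log2 fold changes, deficient minus sufficient, of 136 cell cycle genes (132 of them tested) outside the 35 members, in 5 lists, with 1 point a gene and a black line at each median. Red points, Cdkn1a at -1.23 and Cdc25b at 0.64, passed an adjusted p under 0.05, and the list medians run from -0.04 to 0.22.

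Among inhibitors and quiescence genes, 0 of 11 tested were called higher and 1 lower, and the list median was -0.04. Cdkn1b, which encodes the inhibitor p27, measured 61.8 to 75.5 FPKM in deficient replicates and 78.6 to 104 FPKM in sufficient replicates. Its groups did not overlap, but the log2 fold change of -0.35 did not pass (SE 0.15, limma adjusted p = 0.277). It passed where the 8 columns were kept as separate libraries (limma adjusted p = 0.0319), and adjusted p ran up to 0.644 over the alternatives. The change was -0.22 with deficient replicates 2 and 4 left out and -0.23 with sufficient replicates 1 and 3 left out. It was -0.47 without deficient replicates 1 and 3 and -0.42 without sufficient replicate 4. The 53 other mitotic genes had a median of 0.22, with 48 above 0 and 48 lowest in sufficient replicate 4, and 1 of 52 tested was called.

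In the list of G1 cyclins, their kinases and the E2F and DREAM factors, 0 of 24 tested were called and the median was 0.13. Tfdp2, a partner of E2F factors, measured 8.76, 8.98, 7.76 and 8.21 FPKM across the deficient samples, and 5.09, 6.505, 5.44 and 5.58 FPKM across the sufficient ones. The groups did not overlap and the log2 fold change reached 0.48 (SE 0.13, limma adjusted p = 0.133). Tfdp2 was called with the 8 columns as separate libraries (limma adjusted p = 0.00621, the lowest of the alternatives, whose highest was 0.429). E2f1, an activating E2F, measured 5.36 ± 0.778 FPKM (SD, n = 2) in deficient and 3.94 ± 0.512 FPKM (SD, n = 3) in sufficient libraries (limma adjusted p = 0.302). Myc, a growth-promoting transcription factor, measured 53.9 ± 7.60 FPKM (SD, n = 2) against 62.0 ± 9.99 FPKM (SD, n = 3), with overlap (limma adjusted p = 0.565).

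Origin licensing and firing, the loading and activation of the helicase, had 0 of 17 genes called and a median of 0.09. Cdt1, which loads the helicase, measured 16.8 ± 2.69 FPKM (SD, n = 2) against 22.2 ± 2.93 FPKM (SD, n = 3), a log2 fold change of -0.38 (SE 0.15, limma adjusted p = 0.250). The replication fork and chromatin assembly list had 0 of 28 called and a median of 0.12. Pole2, a subunit of DNA polymerase epsilon, measured 9.73 ± 0.564 FPKM (SD, n = 2) against 6.83 ± 0.963 FPKM (SD, n = 3), a log2 fold change of 0.46 (SE 0.15, limma adjusted p = 0.167). With the 8 columns as separate libraries Cdt1 and Pole2 passed too, at limma adjusted p = 0.0414 and 0.0288, against highest values of 0.631 and 0.475 over the alternatives. The change of Cdt1 was -0.23 with deficient replicates 2 and 4 left out and -0.54 without deficient replicates 1 and 3.

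Some members share sequence or position with other genes. In the GENCODE M21 annotation 9 of the 35 overlap another coding gene, such as Cdc20 with Elovl1, and 4 have a named pseudogene, namely Tyms, Pcna, Ccnb1 and Ccnb2. The sources used here do not say how reads were counted where genes overlap or whether strand was used, so the levels of these members are uncertain.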

How the data were processed

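Total RNA of sorted cells was sequenced with a stranded kit on Illumina instruments, per the labels' protocols. Per the submitters' processing notes, STAR 2.5.1 and the mm10 build were used, as were Cuffdiff 2.2.1, Cuffnorm 2.2.1, cutadapt 1.12, Trim Galore 0.4.2 and FastQC, in no stated order. Their settings and annotation are not known here. The deposited values are FPKM, a unit taken from the authors' table name and its values, and 8 of its 16 value columns matched no sample and were not used. Relative depth came from the ratios of values up to 1 FPKM, and is approximate. In sufficient replicate 4 only 9.83% of these ratios fell on the steps that whole fragments give. That library also held Snora61, a small RNA, at 31180 FPKM, and total FPKM ran from 474400 to 613300 over replicates. Columns of a group were averaged where their spread was under 1.5 times sampling noise at 150 to 500 estimated reads. Genes whose mean over the 5 libraries reached 1 FPKM (10614) entered the test. It used log2(FPKM + 1), which understates the change of low genes, and limma 3.58.1 (R 4.3.3), trended and two-sided, at a Benjamini-Hochberg adjusted p under 0.05. The fit was tested on simulated data.

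Genes given with full statistics were Mki67, Pcna, the member with the lowest p in each of 8 role groups, called genes of 5 pathway lists or else their lowest p, Cdkn1b, E2f1 and Myc. Other genes are given by value. The members and lists were chosen with earlier results of these data known. The alternatives covered the pseudocount, filter, scaling, empirical Bayes, near-identical columns and left-out replicates.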

Additional observations from a re-analysis of the deposited data

How the results depend on the processing

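Across 20 alternatives 0 of the 35 members were called in any. The lowest limma adjusted p of a member was 0.139 (Mki67, 8 columns as separate libraries). At the filter of 5 FPKM, members with a mean below it, such as Ccne2, were not tested. The number of genes called over the whole table, 279, was 182 with a pseudocount of 0.1, 99 with no filter, 113 with a filter at 5 FPKM and 1851 with 8 columns as separate libraries. Over left-out replicates and libraries it ran from 8 to 297, with 80 without sufficient replicate 2, 133 without sufficient replicate 4, 167 without sufficient replicates 1 and 3, 8 without deficient replicates 2 and 4 and 16 when deficient replicates 1 and 3 were left out. A fit with 1 deficient library assumes that it varies like the others. Of the pathway genes outside the members, 2 were called. The count was 1 each with a pseudocount of 0.1, equal totals, quantile normalization and median of ratios scaling. It was 0 with no filter and 0 with a filter at 5 FPKM, where Cdkn1a was not tested. It was 10 with 8 columns as separate libraries and 0 to 2 over left-out replicates. With the replicate block on 8 columns, 1418 genes of the table and 5 pathway genes were called. Cdkn1b (adjusted p = 0.0125) and Tfdp2 (0.0202) passed only there and with 8 separate columns. The numbers share no stated source, so same-numbered replicates were not taken as pairs. In deviations from group means these correlated over genes at 0.0275, 0.0581, 0.126 and 0.0906, against -0.108 to 0.13 for other pairings. Deficient replicates 2, 3 and 4 correlated best with their own number, and deficient replicate 1 with sufficient replicate 2 (0.13). The check cannot decide on pairing, since near-identical columns enter more than 1 pairing. The median log2 fold change ranged over left-out replicates from -0.11 to 0.19 for S phase members and from -0.01 to 0.50 for mitotic members. Signs turned for Pcna (0.10 with equal totals, 0.025 with quantile normalization), Mcm6 (0.12 with equal totals, -0.27 to 0.10 over left-out replicates), Birc5 (-0.10 to 0.67 over left-out replicates) and Myc (0.014 with equal totals). Total FPKM was 474400 to 495400 in deficient and 509600 to 613300 in sufficient replicates, so scaling to equal totals raised fold changes in general. The cause of the other turns was not tested. Small differences at 2 against 3 libraries were not detectable: the interval of Mki67 alone spans -0.13 to 1.46.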
